A study of Homo sapiens with 30 samples.

Results

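The 3 genes of the ONECUT family, ONECUT1 (HNF6), ONECUT2 and ONECUT3, were followed here across pancreatic differentiation of HUES8, an established human embryonic stem cell line, in wild-type control cells and in cells in which ONECUT1 had been knocked out. The assay was ATAC-seq, which reads open chromatin as the places a transposase can reach and tag. The 30 samples form 10 groups of 3, wild type and HNF6 knockout at each of 5 stages: undifferentiated cells (ESC), definitive endoderm (DE), primitive gut tube (GT), then pancreatic endoderm (PE), and last pancreatic progenitors (PP). The labels give no further allele or treatment. They do not say how the knockout was made, whether the line is 1 clone, or whether a group's 3 samples were grown apart, so their spread may be technical only.

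The authors deposited 10 lists of regions that differed between the genotypes, 1 for the regions higher in each genotype at each stage, and 9 clusters of wild-type regions. Taken as members were all rows that overlap a fixed hg19 window around each gene. The ONECUT1 window ran from 52.88 to 53.28 Mb of chromosome 15, the ONECUT2 window from 55.0 to 55.26 Mb of chromosome 18 and the ONECUT3 window from 1.65 to 1.88 Mb of chromosome 19. Of the 112903 rows in all files, 107 lay in these windows: 34 at ONECUT1, 21 at ONECUT2 and 52 at ONECUT3. Of these, 91 came from the 89929 listed regions and 16 from the 22974 cluster regions. The windows also hold or border neighbouring genes. In the RefSeq order of protein-coding genes ONECUT1 lies between ATOSA and WDR72, ONECUT2 between ST8SIA3 and FECH, and ONECUT3 between TCF3 and ATP8B3, the latter followed by REXO1 and KLF16.

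ONECUT factors bind DNA through a cut domain and a homeodomain. ONECUT1 acts early in the developing pancreas and liver, where it is known to lie upstream of PDX1 and the endocrine regulator NEUROG3. ONECUT2 shares much of its binding preference and is known to overlap with ONECUT1 in liver and endoderm, while ONECUT3 is best known from the nervous system and the gut.

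The sequences just before 2 of the start sites are shown as background and were not placed on the listed regions. They are the 250 bases upstream of the annotated start in RefSeq (build GRCh38.p14, whose coordinates are not those of the hg19 regions), at chr15:52790337-52790586 on the minus strand for ONECUT1 and chr18:57435124-57435373 on the plus strand for ONECUT2. Capitals mark GGGCGG or its reverse complement CCGCCC, and CCAAT or ATTGG. The 2 sequences of the 3 genes that matched the table are:
ONECUT1: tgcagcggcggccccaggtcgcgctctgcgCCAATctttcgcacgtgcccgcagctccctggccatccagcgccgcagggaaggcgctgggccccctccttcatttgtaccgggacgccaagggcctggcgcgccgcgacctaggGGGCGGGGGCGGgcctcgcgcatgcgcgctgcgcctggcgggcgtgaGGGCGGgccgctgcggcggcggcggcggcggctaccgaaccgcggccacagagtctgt
ONECUT2: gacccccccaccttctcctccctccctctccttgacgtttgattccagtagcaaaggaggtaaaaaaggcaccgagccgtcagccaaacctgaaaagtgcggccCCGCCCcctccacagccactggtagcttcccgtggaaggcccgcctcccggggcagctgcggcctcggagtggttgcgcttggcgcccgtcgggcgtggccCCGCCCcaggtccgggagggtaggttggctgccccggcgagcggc
GGGCGG was found 3 times in the ONECUT1 and 2 times in the ONECUT2 sequence on either strand, overlapping matches included, and 42.6% of the 35116 RefSeq promoters of this length hold it. CCAAT was found 1 time, in ONECUT1, and 32.0% of promoters hold it. ATTGAT and ATCGAT, cores of the sequence that ONECUT factors prefer, were in neither sequence on either strand, and 5.58% and 0.655% of promoters hold them. Bases G and C made up 76.8% of the ONECUT1 and 68.8% of the ONECUT2 sequence, against a median of 58.0% over all promoters. The dinucleotide CG occurred 37 and 20 times, against a median of 11.

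Each listed region carries 3 values per genotype, a log2 ratio and a -log10 p of at least 5, all from the authors' deposited tables. The log2 ratios below are control over knockout, computed from the means with 1 added to each, so a positive ratio is higher in control. Which 3 values are control rests on the names of the lists, and the values carry no sample names. Whether they were scaled for depth is not stated, and the depth of each library is unknown. A place that is in no list has no value, which does not show that it did not differ. Since every region had been selected by the authors for a difference, no further test was made, and an exact permutation test of 3 values against 3 cannot give a two-sided p under 0.1. Distances are from the start sites of the selection rule (53.082 Mb, 55.103 Mb and 1.753 Mb), which are given to the nearest kb, and upstream and downstream follow the direction of transcription (for ONECUT3, the plus strand from general knowledge).

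The edited gene itself lost almost all signal from its start region into its body at 4 stages. All 6 regions concerned lay between 53072851 and 53082400 of chromosome 15, a stretch of 9550 bp, with knockout means of 0.667 to 14.7 and control means of 158.3 to 2833. At ESC the region from 53075501 to 53082400 spanned the start site (authors' deposited table: control values of 2718, 3002 and 2779 and knockout values of 18, 17 and 9). At DE the stretch held 2 regions, 0.1 and 4.8 kb downstream of the start site, with 514, 505 and 471 against 28, 0 and 0 and 288, 267 and 282 against 10, 0 and 0. At PE the leftmost region, 53072851 to 53073450, had 84, 177 and 214 against 5, 0 and 0, and the one from 53075451 to 53078400 had 1865, 1742 and 1858 against 3, 0 and 0. At PP the region 2.4 kb downstream had 463, 344 and 375 against 2, 0 and 0. The knockout values were thus at or near 0 in every one of these regions, and no knockout value reached a control value.

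These were the most extreme ratios of their lists. The log2 ratios ranged from 5.59 at DE to 9.83 at PE, and the regions ranked 1 by ratio in the control lists of ESC (8549 regions), DE (7041), PE (7111) and PP (3169), and also 2 at DE and at PE. Among the 28205 regions of the control lists whose control mean reached 50, 6 (0.0213%) kept 2% or less of that mean in the knockout, and all 6 were these. At DE the first knockout value alone carried the rest of the signal: without it the ratios were 8.13 and 8.96 in place of 6.01 and 5.59. The GT lists hold no region in this stretch.

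The upstream end of the lost stretch, 53082400, is the end of the ESC region, and the lost regions of DE, PE and PP ended before it. The PE region spanning 53080951 to 53082550 had 613, 768 and 675 against 55, 53 and 115 for control and knockout, a knockout mean of 10.8% of control, and 150 of its 1600 bp (9.38%) lay beyond 53082400. The PP region spanning 53081401 to 53082500 had 456, 423 and 296 against 24, 45 and 27, a knockout mean of 8.17% of control, with 100 of its 1100 bp (9.09%) beyond that point. The values are per whole region, so where in it the remaining knockout signal lay is not known and was not tested. The next regions upstream kept 50.9% (PE) and 42.0% (PP) of the control mean. At ESC the next region began at the very next base and was higher in knockout cells; regions of opposite lists also abut elsewhere, as at 55021250 and 55021251 in the ONECUT2 window. On the downstream side the nearest listed region, 53043551 to 53043800 at GT, kept signal in the knockout (knockout values of 74, 32 and 37 and control values of 13, 3 and 13), and no listed region lies between 53043800 and 53072851.

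**Figure D1:**
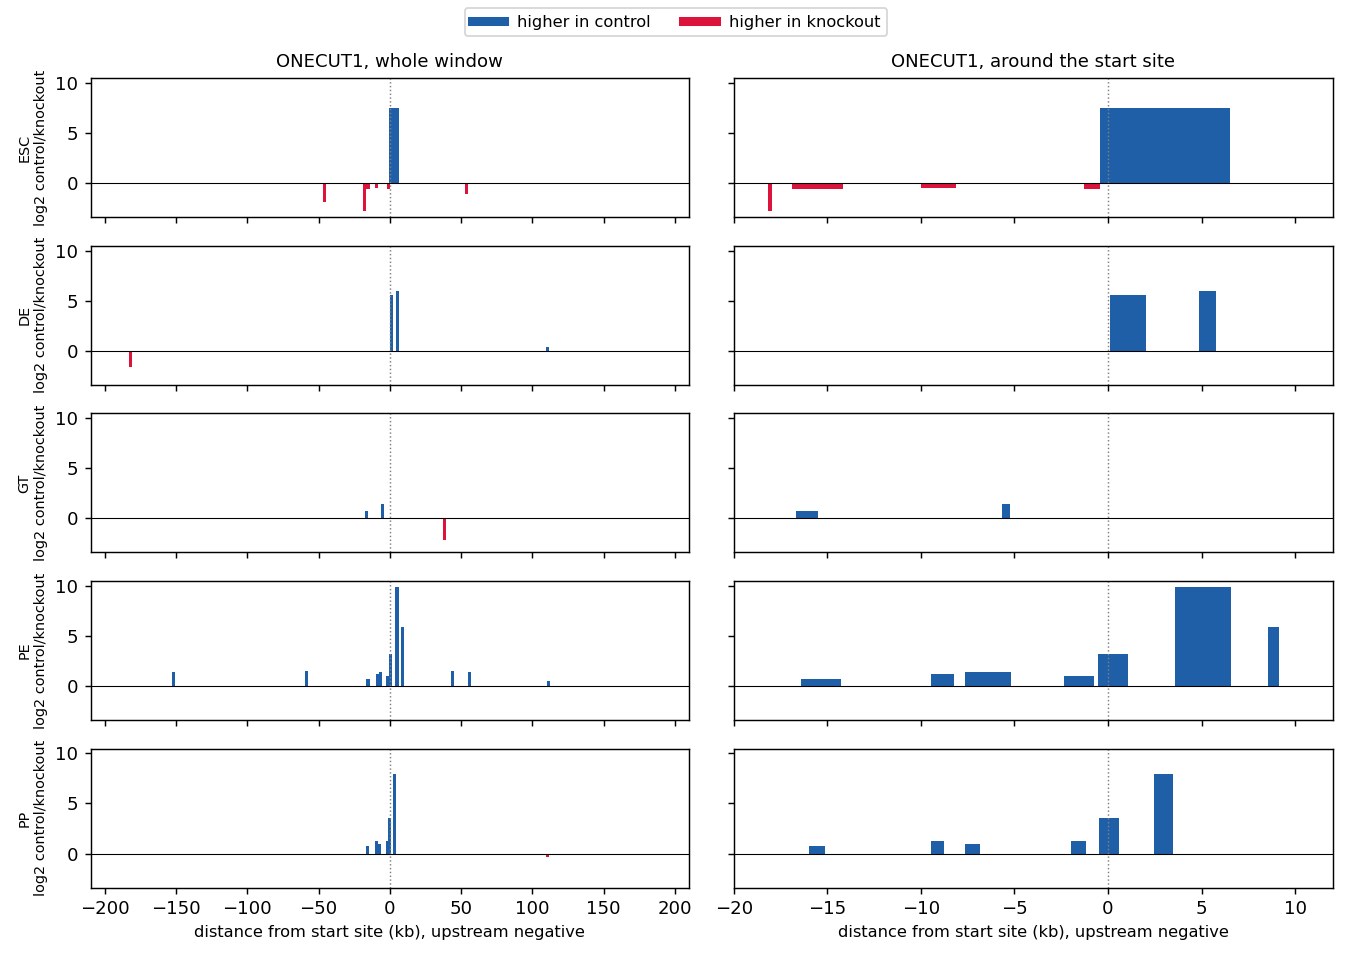
Listed regions at ONECUT1 in each stage, placed by distance from the start site in kb (negative is upstream) with bar height giving the log2 ratio of control over knockout; the left column shows the whole window and the right column the surroundings of the start site, and narrow regions are widened to stay visible. The tall bars just downstream of the start site reach 5.59 to 9.83, and the upstream bars point down at ESC and up at GT, PE and PP.

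The upstream flank of ONECUT1, the 20 kb beyond the lost stretch, was higher in knockout cells at ESC and in control cells at the later stages where it was listed; the difference between stages was not tested. It held 14 listed regions. All 4 at ESC were higher in knockout cells (log2 -2.75 to -0.50), while 2 of 2 at GT (0.76 to 1.49), 4 of 4 at PE (0.69 to 1.37) and 4 of 4 at PP (0.78 to 1.26) were higher in control cells. The DE lists had none there. The ESC ratio of -2.75 was from a region of 200 bp with low values (knockout values of 30, 25 and 63 and control values of 9, 6 and 0). With 10 in place of 1 added to each mean it was -1.72. The other ESC regions of the flank lay between -0.59 and -0.50. Over all listed regions the share higher in control was 42.6% for ESC, 37.2% for DE, 27.0% for GT, 56.1% for PE and 11.3% for PP. On chromosome 15 alone the shares were 21.2% (ESC), 36.6% (GT), 76.7% (PE) and 16% (PP), so the directions at ESC and PE were the common ones of that chromosome, and those at GT and PP were not. The median ratios of the flank, -0.59 (ESC), 1.13 (GT), 1.09 (PE) and 1.10 (PP), stand beside median sizes of 0.93 in the whole knockout list of ESC and 0.88, 0.94 and 0.85 in the control lists of the later 3 stages.

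Closest to the start site, the ESC region from 53082401 to 53083300 had, per the authors' deposited table, knockout values of 549, 505 and 674 and control values of 337, 326 and 485. Overlapping it, the PE region 53082751 to 53084350 had control values of 1091, 1040 and 1163 and knockout values of 635, 482 and 561, and the PP region 53083151 to 53084000 had 388, 213 and 404 against 120, 179 and 123. The control values were the higher ones without overlap at both later stages, 1.96-fold and 2.37-fold by the means, whereas at ESC knockout was 1.5-fold higher, also without overlap.

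Next came a broad PE region that began 5.2 kb upstream, 53087201 to 53089650, with control values of 770, 969 and 690 and knockout values of 298, 259 and 379. Inside it lay a GT region at 5.3 kb, 53087251 to 53087650 (73, 109 and 84 against 35, 28 and 30), and a PP region at 6.9 kb, 53088851 to 53089650 (304, 289 and 295 against 199, 97 and 163), which did not overlap each other. No values overlapped between genotypes, and the log2 ratios were 1.37, 1.49 and 0.95. By the authors' -log10 p of 47, the PE region was the 18th of 7111 in its list.

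About 8 kb upstream, ESC knockout cells had 786, 779 and 1155 and control cells 638, 663 and 623 over 53090101 to 53092000. At PE the values over 53090251 to 53091450 were 492, 458 and 457 against 140, 229 and 239 for control and knockout, and at PP those over 53090751 to 53091450 were 287, 361 and 375 against 183, 133 and 108. The knockout level was thus 1.41-fold higher at ESC and 2.31-fold and 2.40-fold lower at PE and PP, and the groups were apart at each stage.

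The element 14.2 kb upstream was listed at 4 stages, more than any other place in the ONECUT1 window apart from the lost stretch. Knockout cells had 1362, 1022 and 1564 at ESC over 53096151 to 53098900, against 825, 907 and 893 in control cells. At PE the values over 53096251 to 53098400 were control values of 836, 1096 and 1013 and knockout values of 694, 506 and 629. The values overlapped at GT over 53097501 to 53098650 (219, 271 and 375 against 227, 160 and 121) and at PP over 53097151 to 53098000 (178, 253 and 215 against 236, 55 and 83), where 1 knockout value lay above 1 or more control values. In all 4 upstream ESC regions the third knockout value was the highest; without it the ratios were -0.46, -0.29, -0.45 and -2.25, still higher in the knockout. Its column sum over all listed autosomal regions was 1.02 times the mean of the other 2.

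**Figure D2:**
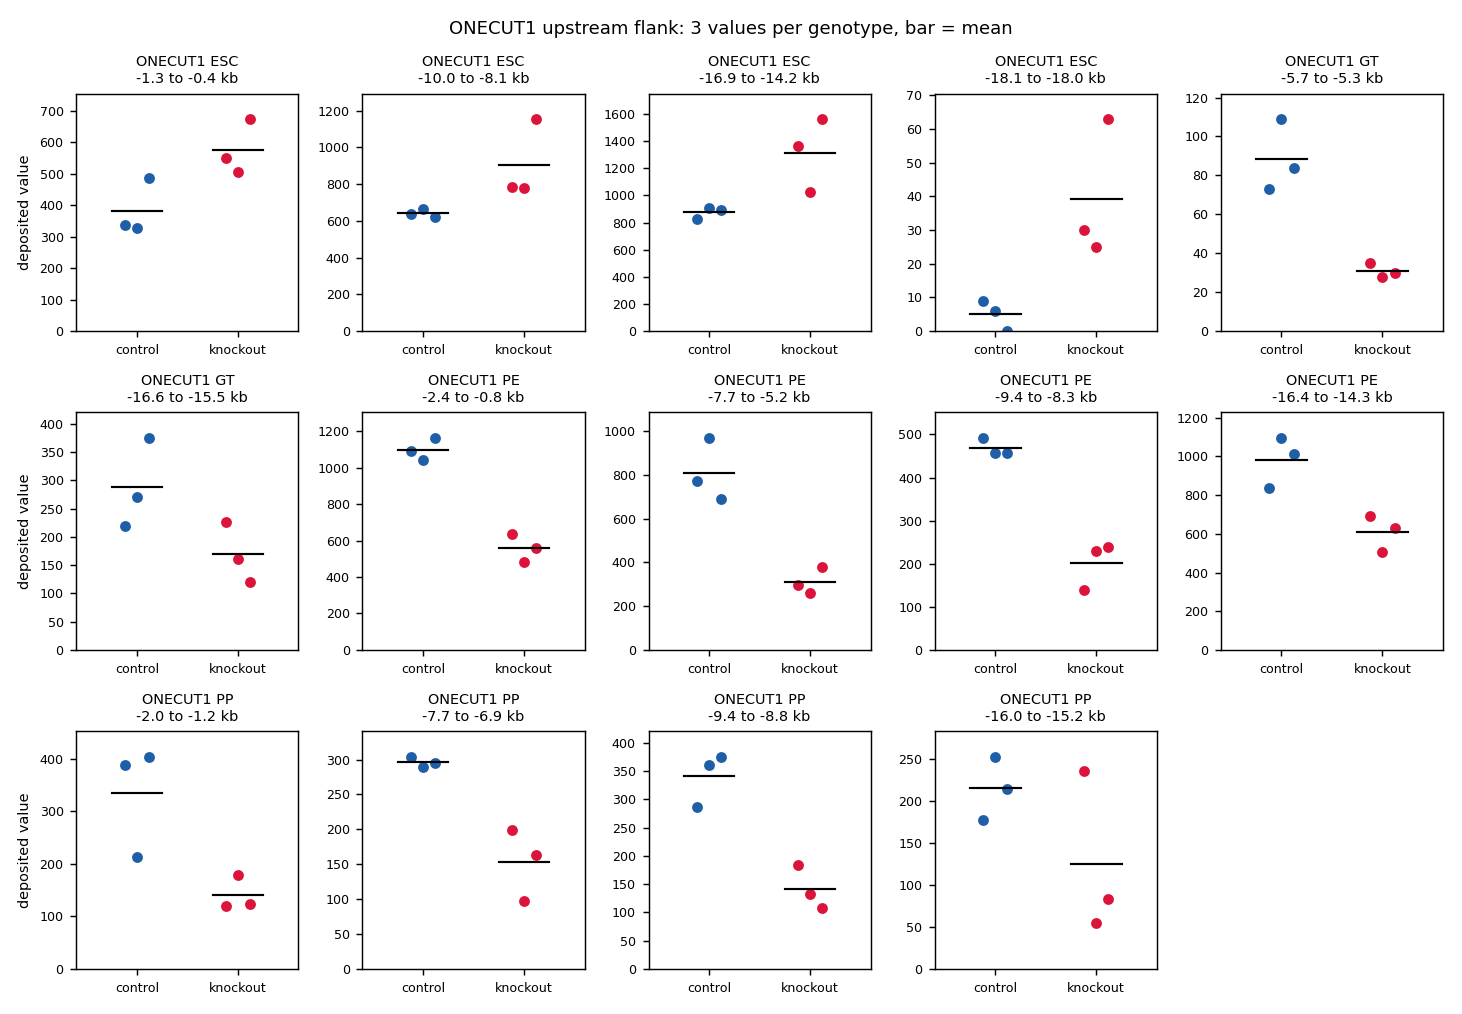
The 3 deposited values of control and knockout cells (points, each set in file order) and their means (bars) in the 14 listed regions of the ONECUT1 upstream flank, each panel with its own axis from 0 and its distance from the start site in kb. Knockout points lie above control points in the 4 ESC panels and below them in the GT, PE and PP panels, except the GT and PP panels of the element listed at 4 stages, where the groups overlap.

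The rest of the ONECUT1 window had fewer listed regions. A place 109.7 to 111.2 kb downstream of the start site, on the side of ATOSA, was listed at 3 stages. It was higher in control at DE over 52970201 to 52972300 (988, 1014 and 876 against 666, 701 and 775), and at PE over 52970151 to 52970800 (505, 377 and 629 against 445, 308 and 310), where the values overlapped. At PP it was higher in the knockout over 52970151 to 52972050 (1627, 1557 and 1709 against 1100, 1456 and 1256 in control cells). That last ratio was -0.36, and it turned to 0.16 when each column was divided by its sum over the listed regions. At DE the region from 53263601 to 53264400, 181.6 kb upstream, had knockout values of 207, 93 and 162 and control values of 87, 43 and 23. The remaining 7 regions of the window, 4 higher in control and 3 in knockout, had log2 ratios from -2.75 to 1.53, and values overlapped in 1 of them. Of these 7, 1 lay in the upstream flank and was given there because of its values.

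By stage, the ONECUT1 window held 1 region higher in control and 6 in knockout at ESC, 3 and 1 at DE, 2 and 1 at GT, 12 and 0 at PE, and 6 and 1 at PP. Leaving out the regions of near-complete loss, the PE count was still 10 of 10. At PP, without the lost and the edge region, 4 of 5 were higher in control. The control shares over chromosome 15 were 21.2%, 27.4%, 36.6%, 76.7% and 16% in the order of the stages.

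At ONECUT2, the paralog, the regions around the start site were higher in control at PE and mostly higher in the knockout at PP. All 6 regions listed in the window at PE were higher in control, as were 90.1% of the listed regions of chromosome 18 at that stage. At PP 1 of 6 was higher in control, beside 6.91% for that chromosome. Both directions were thus the common ones of chromosome 18 at these stages. Within 10 kb of the start site, 4 PP regions were listed as higher in knockout. After division of each column by its sum over the listed regions, their log2 ratios ranged from -0.37 to 0.17. The remaining stages had 1 higher in control and 3 in knockout at ESC, 1 and 1 at DE, and 1 and 2 at GT. The shares higher in control over chromosome 18 were 20.1% (ESC), 64.2% (DE) and 29.4% (GT). Within 10 kb of the start site no region was listed at ESC or GT.

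Upstream of ONECUT2, an element 6.6 kb from the start site was higher in control at DE and PE. At DE the authors' deposited table gave control values of 312, 264 and 185 and knockout values of 92, 170 and 157 over 55095101 to 55096250, and at PE 645, 687 and 703 against 354, 513 and 392 over 55094851 to 55096400. The 3 values of each genotype stood apart at both stages, by 1.81-fold and 1.61-fold. At PP this element was not listed, and the neighbouring region from 55097501 to 55098150 was higher in the knockout, with knockout values of 281, 218 and 271 and control values of 105, 143 and 164.

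The start region of ONECUT2 was listed at PP alone. The region from 55101701 to 55103100, which covers the start site, had knockout values of 1032, 1103 and 1150 and control values of 906, 839 and 814, and the neighbouring upstream region from 55100201 to 55101650 had 387, 396 and 535 against 294, 207 and 207. Both sets of knockout values lay above all control values. Just inside the gene the direction was the opposite: from 55104201 to 55106150 control cells had 910, 1057 and 822 and knockout cells 509, 477 and 541, again without overlap. With a -log10 p of 24.9 this region was the 38th of 3169 in the control list of PP. Both directions were thus listed near the start site at PP. Dividing each column by its sum over the listed regions turned the ratio at the start site from -0.36 to 0.17. That of the neighbouring upstream region went from -0.89 to -0.37.

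Further into ONECUT2, control was higher at PE over 3 regions. They were 55105451 to 55109250 with 1388, 1870 and 1616 against 1179, 1195 and 1171, 55109901 to 55110450 with 124, 166 and 109 against 52, 65 and 68 and 55111601 to 55112150 with 205, 167 and 262 against 79, 76 and 151. All 3 had separate values, with log2 ratios of 0.46, 1.10 and 1.04. At PP the region from 55108101 to 55109050, inside the first of them, was higher in the knockout with overlapping values (494, 368 and 300 against 144, 286 and 339). Dividing each column by its sum over the listed regions moved the PP ratios of the 3 loci toward control by 0.43 to 0.57, with a median of 0.53; the knockout columns there summed to 1.45 times the control columns. The PP ratio at the ONECUT2 start site then turned from -0.36 to 0.17, those of the other 3 knockout regions near it lay between -0.37 and -0.06, and that of the control region was 1.39, so that 2 of the 6 regions of the window were higher in control; at ONECUT1 it made 7 of 7 at PP. The same division moved ratios by a median of 0.26 at DE, 0.28 at GT, 0.06 at ESC and 0.01 at PE. These sums are over listed regions, 24770 of 27939 at PP being higher in knockout, and so are not library totals.

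The flanks of the ONECUT2 window, 81.2 kb or more from the start site, were listed in both directions. On the side of ST8SIA3, 2 abutting ESC regions differed in opposite directions: 55019701 to 55021250 with knockout values of 784, 739 and 903 and control values of 604, 473 and 733, and 55021251 to 55021800 with control values of 438, 338 and 426 and knockout values of 262, 323 and 209. At PE the region from 55019001 to 55019750, which shares 50 bp with the former, had control values of 208, 334 and 220 and knockout values of 177, 115 and 147. On the side of FECH, the element from 55200151 to 55201250 was higher in knockout at ESC (377, 509 and 253 against 247, 183 and 212) and at GT it was higher in control (357, 324 and 398 against 275, 182 and 240 over 55200051 to 55201200), without overlap at either stage. Also there, knockout cells were higher at GT over 55193251 to 55194150 (160, 120 and 195 against 71, 92 and 63) and, with overlapping values, at DE over 55209351 to 55209750 (104, 48 and 75 against 48, 8 and 10). The other 4 regions of the window had ratios from -1.51 to 2.08. The highest of these, at PE over 55191001 to 55191200, rested on 1 control value (18, 127 and 17 against 15, 5 and 16), and without that value the ratio was 0.51; it is named because of its values.

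**Figure D3:**
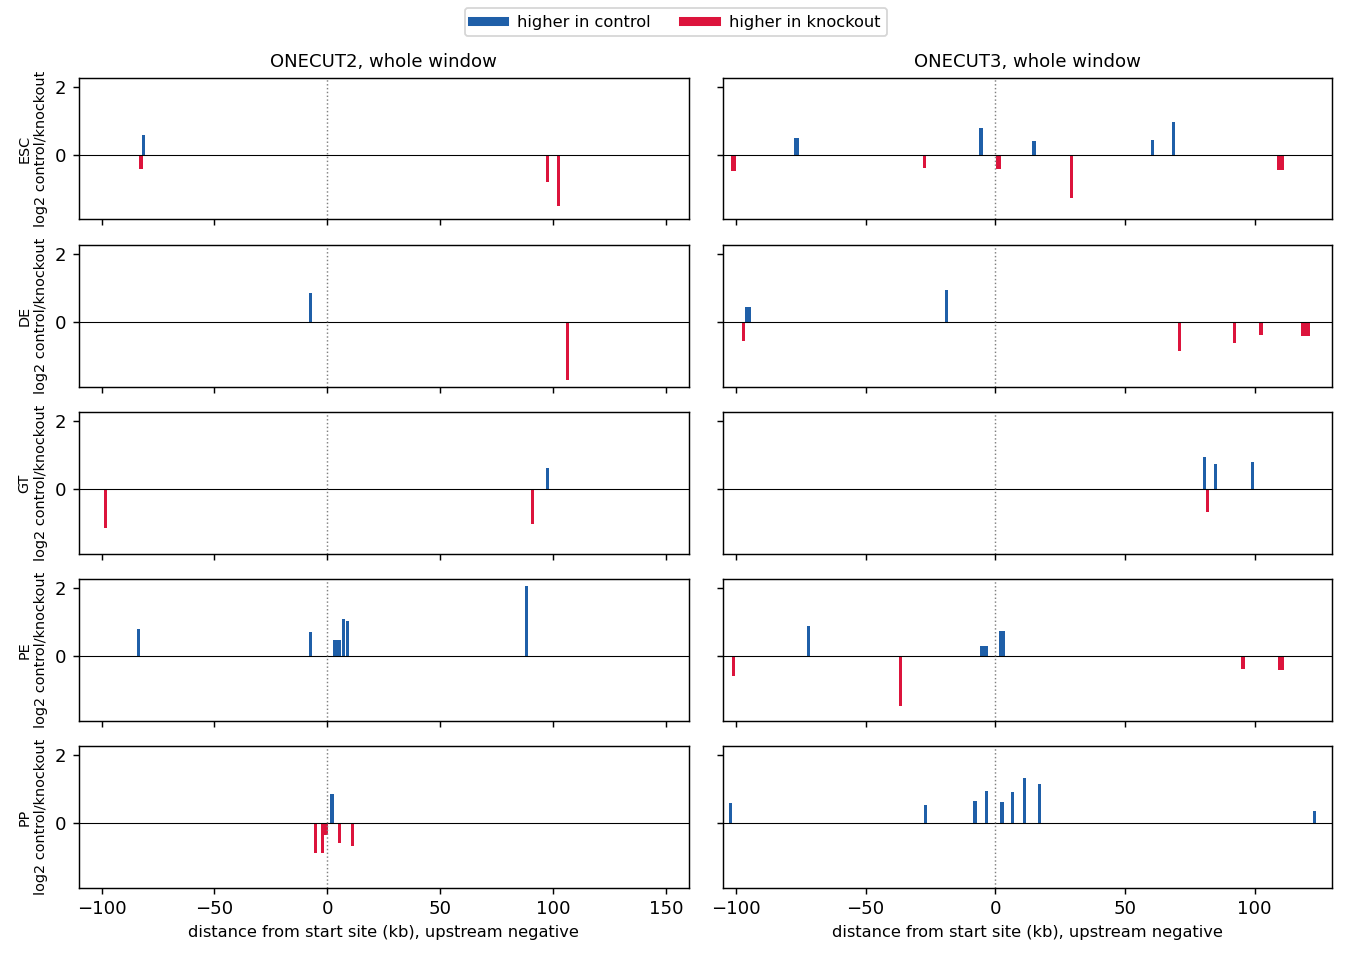
Listed regions in the ONECUT2 and ONECUT3 windows at each stage, by distance from the start site in kb (negative is upstream), with bar height giving the log2 ratio of control over knockout; narrow regions are widened to stay visible. Around the ONECUT2 start site bars point up at PE and mostly down at PP, while around the ONECUT3 start site they point up at both stages.

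At ONECUT3 the regions around the start site were higher in control cells at both pancreatic stages. Within 10 kb of the start, 2 of 2 regions at PE and 4 of 4 at PP were higher in control, 1 of 2 at ESC, and none was listed at DE or GT. Over the whole window all 9 regions listed at PP were higher in control, where the share was 52.2% over chromosome 19. At PE 3 of 7 were, beside 25% for that chromosome, and the 4 higher in knockout all lay farther than 10 kb from the start. The other stages had 5 and 5 at ESC, 2 higher in control and 5 in knockout at DE, and 3 and 1 at GT. The shares higher in control over that chromosome were 55.5% (ESC), 22.8% (DE) and 33.1% (GT).

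Upstream of ONECUT3, the region from 1746551 to 1748150, 4.8 kb from the start, was higher in control at ESC (1055, 820 and 793 against 502, 518 and 509, in the authors' deposited table). With a -log10 p of 20.5 it was the 35th of 8549 regions in its list. A region overlapping it was listed at PE over 1747151 to 1750100 (1495, 1589 and 1674 against 1482, 1039 and 1359), which in turn overlapped the PP region from 1749051 to 1750200 (484, 430 and 336 against 238, 197 and 218). Values stood apart at each of the 3 stages, and the log2 ratios were 0.80, 0.29 and 0.93. A further PP region 7.0 kb upstream, 1744351 to 1746000, was higher in control with overlapping values (471, 382 and 610 against 174, 419 and 339).

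At the start of ONECUT3 itself the direction differed between ESC and the pancreatic stages. The ESC region from 1753301 to 1755250 was higher in knockout (767, 765 and 918 against 697, 504 and 610). The PE region 1754501 to 1756650 had control values of 1144, 1076 and 1273 and knockout values of 712, 619 and 775, with a -log10 p of 23.2, and the PP region 1754951 to 1756250 had 743, 730 and 741 against 468, 499 and 469. Both lay downstream of most of the ESC region and shared 750 and 300 bp with it. Deeper in the gene, at 1759051 to 1760000, PP control cells had 289, 234 and 212 and knockout cells 105, 147 and 133. Each of these 4 differences was without overlap, with ratios of -0.44, 0.73, 0.62 and 0.93.

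**Figure D4:**
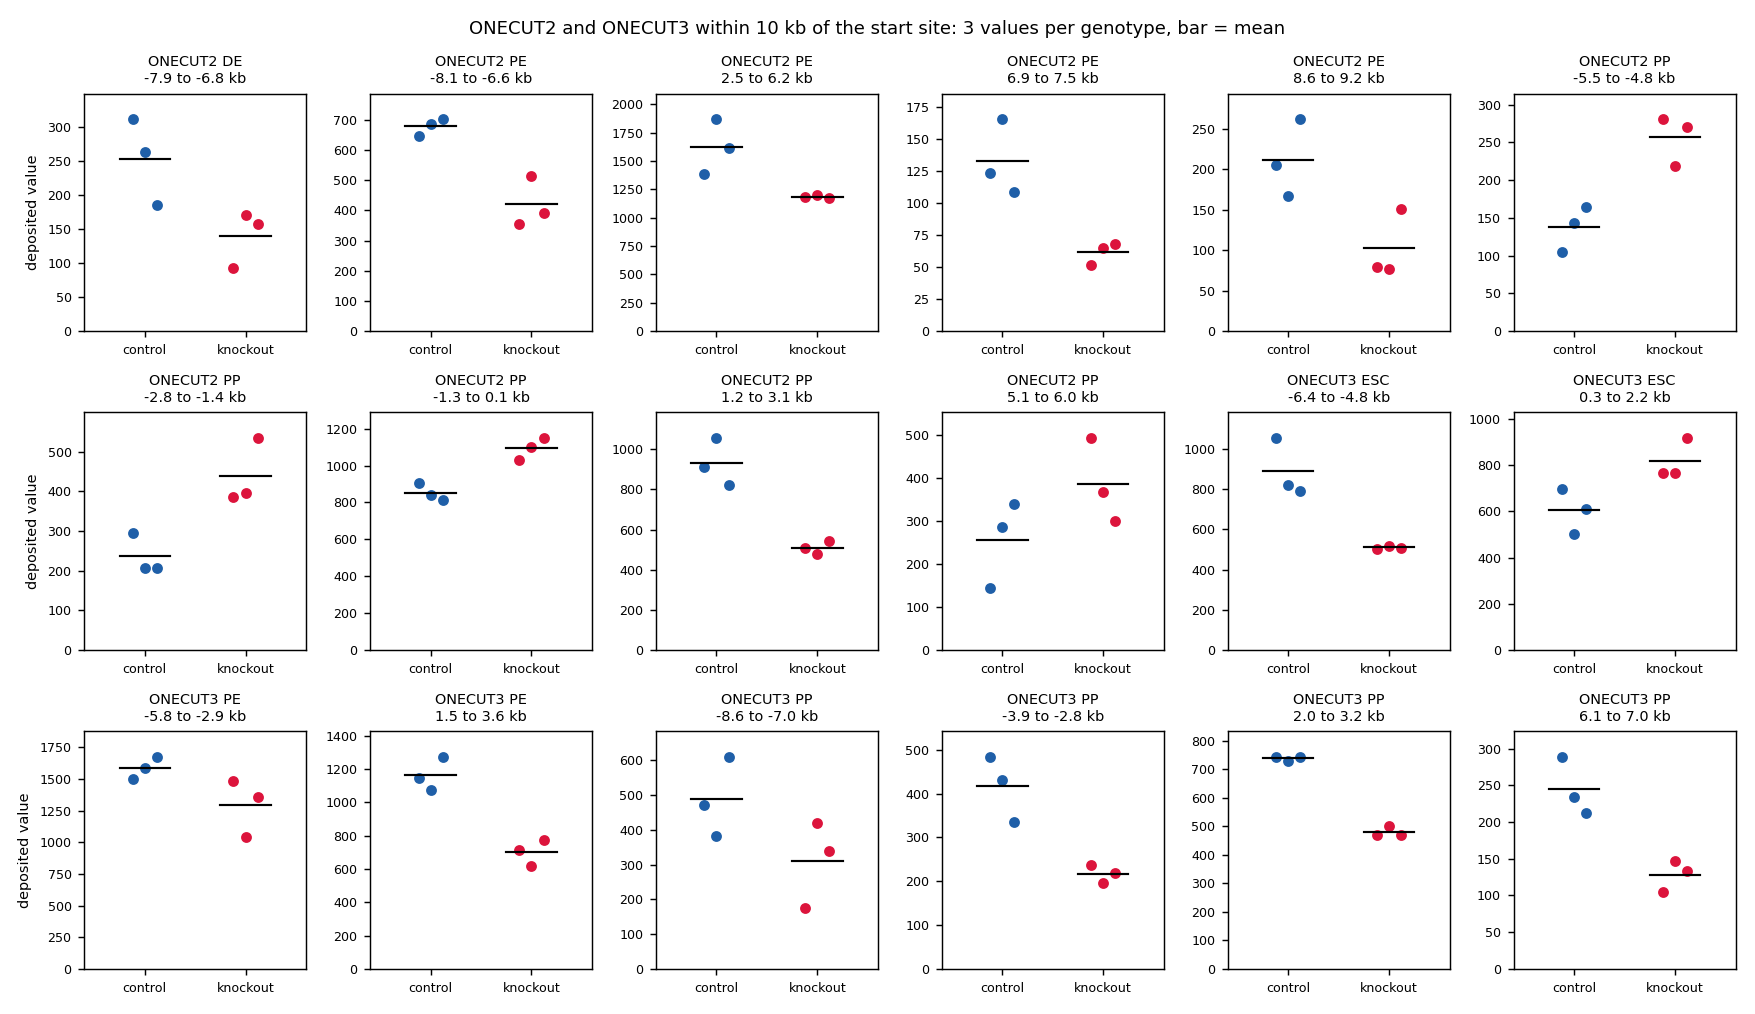
The 3 deposited values of control and knockout cells (points, each set in file order) and their means (bars) in the 18 listed regions within 10 kb of the ONECUT2 and ONECUT3 start sites, each panel with its own axis from 0. Groups overlap in the ONECUT2 PP panel at 5.1 kb and in the ONECUT3 PP panel at -7.0 kb, and stand apart in the other 16.

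The rest of the ONECUT3 window borders several other genes. At its left edge, on the side of TCF3, knockout was higher at ESC (1032, 803 and 888 against 694, 599 and 664 over 1651301 to 1652950) and at PE (884, 956 and 888 against 601, 701 and 499 over 1651351 to 1652850). The PP region from 1650201 to 1651450, which shares at most 150 bp with them, was higher in control (519, 369 and 397 against 243, 361 and 250). An element 26.5 kb upstream was higher in knockout at ESC (808, 1021 and 980 against 746, 643 and 754 over 1725101 to 1726400) and higher in control at PP (754, 478 and 652 against 403, 476 and 437 over 1725751 to 1726500). At the right edge, knockout was higher at ESC over 1861551 to 1864250 (1356, 1561 and 1867 against 1204, 904 and 1395, with overlap) and at PE over 1862051 to 1864300 (1848, 1626 and 2154 against 1574, 1528 and 1095).

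The highest-scoring regions of the other stages in the ONECUT3 window lay farther than 10 kb from its start site. At DE they were 1733601 to 1734750, higher in control with overlapping values (177, 269 and 293 against 192, 103 and 88), and 1823551 to 1824500, higher in knockout (394, 283 and 289 against 160, 209 and 162). At GT they were 1851701 to 1852750, higher in control (361, 229 and 388 against 216, 164 and 177), and 1834101 to 1835400, higher in knockout with overlapping values (240, 250 and 454 against 257, 137 and 186). The remaining 18 regions, 11 higher in control and 7 in knockout, had log2 ratios from -1.51 to 1.34, with overlap in 2 of them.

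Set side by side, the regions within 10 kb of the 3 start sites were mostly higher in control. Leaving out the regions of near-complete loss at ONECUT1, they numbered 29, the 2 at the edge of the stretch included, and 22 were higher in control. At PE this was 10 of 10, in all 3 genes, and at PP 9 of 13, where the 4 exceptions were at ONECUT2. At ESC 1 of 4 was higher in control. Over all listed regions the shares were 56.1%, 11.3% and 42.6% at these stages. The 4 ESC regions lay at ONECUT1 and ONECUT3, and the ESC shares of chromosomes 15 and 19 were 21.2% and 55.5%. By chromosome, 8 of the 10 PE regions lay on chromosomes 15 and 18, where 76.7% and 90.1% were higher in control, and 1 of them was the edge region of ONECUT1, mostly inside the lost stretch. At PP the shares on the chromosomes of ONECUT1, ONECUT2 and ONECUT3 were 16%, 6.91% and 52.2%. The 9 PP regions likewise include an edge region of ONECUT1, mostly inside the lost stretch. Over the windows as wholes the genotypes' values stood fully apart in 18 of 21 regions at ESC (76.1% of all listed regions), 11 of 13 at DE (77.5%), 8 of 10 at GT (82.6%), 23 of 25 at PE (77.5%) and 19 of 22 at PP (79.8%), so the members were about as well separated as listed regions in general.

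**Figure D5:**
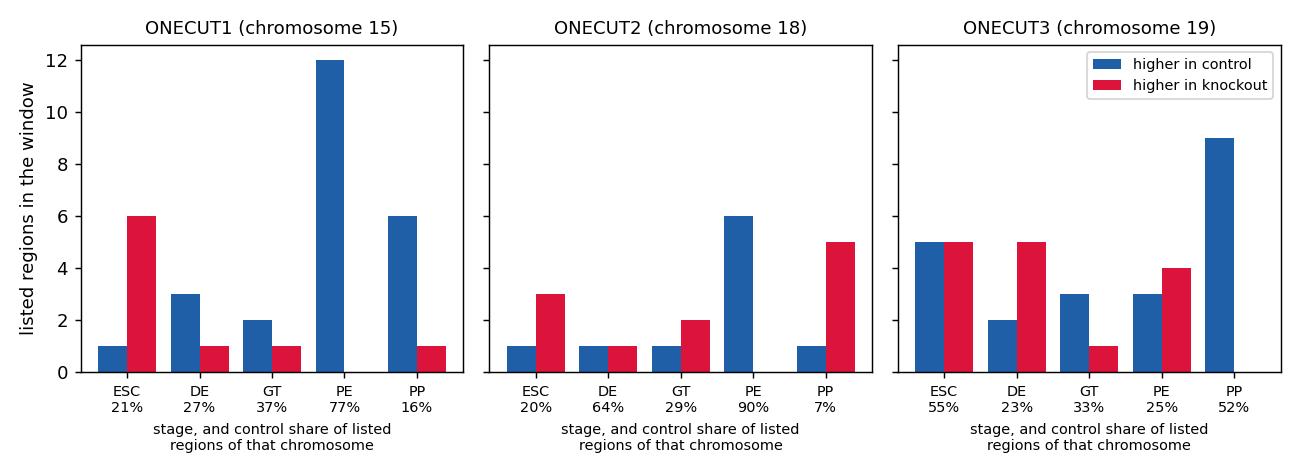
Number of listed regions in each window that were higher in control or in knockout cells at each stage (bars, axis from 0), with the percentage under each stage giving the share of that chromosome's listed regions that were higher in control. All 12 ONECUT1 and all 6 ONECUT2 regions at PE, and all 9 ONECUT3 regions at PP, were higher in control.

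Some places were listed at more than 1 stage. Joined where they overlap, they numbered 5 at ONECUT1, 4 at ONECUT2 and 5 at ONECUT3, and all members of the joined place had 1 direction in 1, 1 and 2 of them. These counts depend on the limits: joining only where 50% of the shorter region was shared gave 2 of 6, 1 of 3 and 4 of 5 places with 1 direction, and a -log10 p of at least 10 gave 3 of 4, 1 of 1 and 2 of 2. The ONECUT1 places include the lost stretch. In the main count its edge regions joined it, by 150 and 100 bp, to the adjacent ESC region higher in knockout, so that place had both directions. Under either stricter limit the lost stretch had 1 direction. Overlapping regions from different stages were also taken as pairs, leaving out pairs with a region of near-complete loss. Of these, 16 of 35 had the same direction, 15 of 26 where 50% of the shorter region was shared, and 6 of 7 with a -log10 p of at least 10. Pairs with the edge regions of ONECUT1, which lay mostly inside the lost stretch, are included. Lists of different stages share no libraries.

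Few of the authors' wild-type cluster regions lay at these genes. The ONECUT2 window held none and the ONECUT1 window 1, a cluster 6 region 110.7 kb downstream of the start site that overlapped the control list of DE and the knockout list of PP. The ONECUT3 window held 15, 9 of them of cluster 1 and 2 each of clusters 3, 6 and 7, the nearest 12.2 kb from the start site. Of the 16 in all, 6 overlapped a list, beside 38.4% of all cluster regions. The sources used here do not say what time course each cluster groups.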

How the data were processed

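ATAC-seq had been done on 3 samples per genotype and stage. Bowtie2, MACS2 and hg19 are named per the submitters' processing notes. Their versions and roles, the caller of differential regions, any transposase shift and the scaling: not given in the sources used here. Per the files, which have no header, the authors deposited a log2 ratio per region and, in 1 text cell that is other than a standard unit, 2 sets of 3 whole numbers with a -log10 p; the cluster files hold a text label, another field without a measured value. Because the second set is larger in lists named for control, it was read as control. Depth per sample is unknown.

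Regions overlapping a window by at least 1 bp were kept, and log2 ratios recomputed from the means with an offset of 1 (Python 3.11.15, pandas 2.3.3, numpy 2.4.6, figures with matplotlib 3.10.9). The code was checked on 2000 simulated regions over the 3 windows, with 0 misplaced. Named regions are those within 10 kb of a start site, the highest-scoring of each locus, stage and direction, and those listed at several stages. The windows, limits and named regions were chosen with earlier results of these data known. A list of other pancreatic genes could not be placed, since no hg19 annotation was used. Alternatives were a -log10 p of at least 10, an overlap of 50% of the shorter region, other distances, an offset of 10, scaling by column sums, limits of 5 and 10% for loss, and leaving out each value.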

Additional observations from a re-analysis of the deposited data

Results flagged for a closer look

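Some places were higher in 1 genotype at 1 stage and higher in the other at another, with the 3 values of each genotype apart at both stages and at least 50% of the shorter region shared. There were 7 such pairs, 6 of them with ESC as the earlier stage, and the difference between stages was not tested. How many such pairs the whole genome holds was not counted. On chromosome 15 the share of listed regions higher in control was 21.2% at ESC, 27.4% at DE, 76.7% at PE and 16% at PP. It was 20.1% at ESC and 29.4% at GT on chromosome 18, and 55.5% at ESC and 52.2% at PP on chromosome 19. Values stood apart in 76.1% (ESC) to 82.6% (GT) of all listed regions of a stage. The ESC region about 8 kb upstream of ONECUT1 enters both a PE and a PP pair. At ONECUT1 the log2 ratios differed by 1.56 between ESC and PE next to the start site, by 1.71 between ESC and PE and 1.76 between ESC and PP about 8 kb upstream, and by 1.27 between ESC and PE at 14.2 kb upstream. In these 4 pairs ESC was higher in knockout and the later stage in control. On the side of ATOSA the DE and PP ratios differed by 0.79. At ONECUT2, on the side of FECH, ESC and GT differed by 1.45, and at ONECUT3, 26.5 kb upstream, ESC and PP differed by 0.91. In that PP region the groups were only narrowly apart, the lowest control value being 478 and the highest knockout value 476. After division by the column sums 6 of the 7 pairs were still opposite; the pair of DE and PP was not.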

How the results depend on the processing

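No paired analysis was possible because the columns carry no replicate numbers and the results come from no test. The direction of the 91 ratios held with an offset of 10 and with each value left out in turn; division by the column sums turned 2, both at PP, to 0.16 (ONECUT1, side of ATOSA) and 0.17 (ONECUT2 start site). For the counts that division was chosen after seeing the data. It moved no total over the 5 stages by over 1.5 times, but at PP it took ONECUT2 from 1 to 2 regions higher in control and ONECUT1 from 1 to 0 higher in knockout. With a -log10 p of at least 10 the windows held, higher in control and in knockout, 15 and 2 regions at ONECUT1 (main 24 and 9), 3 and 1 at ONECUT2 (10 and 11) and 5 and 3 at ONECUT3 (22 and 15). Within 50 kb of the start site ONECUT2 had 6 and 5, and ONECUT3 12 and 4. Near the start site the stricter p left 0 knockout regions at ONECUT1, 3 control and 1 knockout at ONECUT2, and 4 control and 0 knockout at ONECUT3. Within 5 kb there were 9 control and 1 knockout regions at ONECUT1 and 2 control regions at ONECUT2, and within 25 kb 4 knockout regions at ONECUT1 and 11 control regions at ONECUT3. The stricter p left 1 place listed at several stages at ONECUT2 and 2 at ONECUT3. The stricter p and the distances by their construction count fewer or more regions. Of the ratios, an offset of 10 moved 5 and the column sums 17 more by over 1 SD, and leaving out a value moved 2 (DE, lost stretch). The lost stretch was 9550 bp long with any value left out and 9550 to 9650 bp otherwise. The number of regions in it that met the 2% limit fell from 6 to 5 without the second or without the third knockout value. A limit of 10% gave 7 regions. Depth is unknown, so no limit of detection can be given.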

Other observations

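In the lost stretch of ONECUT1 the first knockout value was the one above 0 in 5 of the 5 regions listed after ESC, at DE, PE and PP, and the other 2 were 0. In the 1 region listed at ESC all 3 knockout values were above 0. The columns carry no sample names, so whether the first column is the same source at each stage is not known.

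Of 77186 joined places in the genome, 307 were listed at 4 or 5 stages, and 2 were higher in knockout at ESC, higher in control at GT, PE and PP, and not listed at DE. One was the ONECUT1 element 14.2 kb upstream, with log2 ratios of -0.59, 0.76, 0.69 and 0.78. The pattern was taken from this element, so it matches by construction, and its values overlapped between genotypes at GT and PP. The other was at chromosome 18, 37420951 to 37423050 (hg19), with -1.02, 0.81, 0.38 and 0.62.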
